A study of Mus musculus with 24 samples.

Results

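Astrocytes shape synapses in opposite ways, by secreting proteins that build or restrain them and by engulfing synaptic material and debris. The 10 genes described here encode proteins known for these tasks and were chosen by name: Sparc, Sparcl1, Thbs1, Thbs2, Gpc4, Gpc6 and Chrdl1 among the secreted or cell-surface synapse regulators, and Megf10, Mertk and Gas6 in engulfment. All 10 were found among the 24411 genes measured.

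As background, thrombospondins and Sparcl1 (hevin) promote the formation of excitatory synapses, and Sparc counteracts Sparcl1. Glypicans recruit AMPA-type glutamate receptors to young synapses, and Chrdl1 promotes the switch to mature receptors. On the engulfment side, Megf10 and Mertk are receptors for exposed phosphatidylserine or for proteins bound to it, and Gas6 bridges phosphatidylserine to the TAM receptors Tyro3, Axl and Mertk.

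The study measured RNA in cultured mouse glia, wild-type (WT) or carrying the SOD1G93A transgene of amyotrophic lateral sclerosis models, to ask whether the transgene alters these cells at rest or once activated. Bulk RNA sequencing gave the 21 libraries used here, 3 in each of 7 conditions. The 3 quiescent SOD1G93A microglia samples among the 24 of the series are not analysed here. Astrocytes came from the cortex of pups at postnatal day 5 by immunopanning, in which microglia (CD45), endothelial cells (BSL I) and oligodendrocyte lineage cells (O4) are removed before astrocytes are caught with HepaCAM.

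The 4 astrocyte conditions were WT quiescent, SOD1G93A quiescent, WT activated and SOD1G93A activated. All were grown without serum in medium with HBEGF at 5 ng/mL, and activated cells also received 3 cytokine or complement factors (3 ng/mL of IL-1α, 30 ng/mL of TNFα, and 400 ng/mL of the protein C1q). The 3 microglia conditions were WT quiescent, WT with lipopolysaccharide (LPS) at 50 ng/mL and SOD1G93A with LPS at 50 ng/mL. Microglia were caught magnetically by CD11b from whole brain at postnatal days 7 to 10 and kept without serum with TGF-β2 at 2 ng/mL and IL-34 at 100 ng/mL. SOD1G93A mice were kept on C57BL/6J, and the transgene is not restricted to glia. The labels do not say whether the 3 libraries of a condition came from separate cultures or animals, and a supplementary table of replicate numbers that the paper points to is not analysed here, so p-values measure only the spread between these samples, which may be technical.

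Libraries held between 2016139 and 11570122 reads on genes, with a median of 5098168. In activated astrocytes every WT library was deeper (5047999, 6768201 and 5749391 reads) than every SOD1G93A library (3721779, 3929272 and 2135439 reads), so genotype and depth cannot be told apart there. In 4 conditions 1 library stood apart from the other 2 by the chi-square per degree of freedom between read counts, which spanned 1.503 to 21.73 over all 21 replicate pairs. WT LPS microglia replicate 1 differed from its fellows by 15.05 and 13.8 (1.646 between the other 2), and SOD1G93A LPS microglia replicate 3 by 16.81 and 21.73 (2.407 between the other 2). WT quiescent astrocyte replicate 3 differed by 9.455 and 6.822 (2.08 between the other 2), and SOD1G93A quiescent astrocyte replicate 1 by 6.773 and 10.38 (2.88 between the other 2). The statistic was not adjusted for depth and can grow with the reads of a pair. WT LPS microglia replicate 1 (8121620 reads), WT quiescent astrocyte replicate 3 (9258718) and SOD1G93A quiescent astrocyte replicate 1 (9526331) were the deepest of their conditions. SOD1G93A LPS microglia replicate 3 (4042840) was the shallowest of its own. The part of depth was not tested. Where leaving out a library that stood apart made or ended a call of a member or turned its direction, the value without it is given.

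Cell labels were checked with marker genes. Values are RPM, the reads of a gene scaled to a library total of 1000000 reads on genes. The 11 astrocyte markers summed to a mean of 6067 RPM in WT quiescent astrocytes, led by the glutamate transporter Slc1a3, against 879.9 RPM in WT quiescent microglia, where 741 RPM of the sum was Glul. The 10 microglia markers summed to 10477 RPM in WT quiescent microglia and to 216 RPM in WT quiescent astrocytes. Astrocyte cultures also held transcripts of the oligodendrocyte lineage list, at 3061 RPM over 10 genes in WT quiescent cells, of which Olig1 made up 1799 RPM, while Mog was at 3 reads or fewer in every astrocyte library. Bulk samples cannot tell fewer cells of a type from less RNA per cell.

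Levels are described first, with no test, as RPM with the SD over 3 libraries, and per kilobase of merged exons where genes are compared with each other. In WT quiescent astrocytes the secreted matrix proteins dominated. Sparcl1 stood at 199 ± 39.8 and Sparc at 105 ± 28.5 RPM per kilobase (SD, n = 3). Gas6 (16.6 ± 1.96), Gpc4 (15.6 ± 5.38) and Megf10 (11.1 ± 1.24) formed a middle tier on that scale, above Chrdl1 (7.95 ± 1.42), Gpc6 (6.80 ± 1.13) and Thbs1 (5.74 ± 2.38). Mertk was at 2.87 ± 0.287 and Thbs2 at 0.408 ± 0.232, the lowest of the 10 genes in resting astrocytes.

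WT activated astrocytes had a different ranking per kilobase. Sparc (174 ± 10.7) and Sparcl1 (153 ± 9.51) exchanged places at the top, Gas6 reached 45.4 ± 2.13, and Thbs2 stood at 17.1 ± 0.436, above Thbs1 at 12.6 ± 0.928. Megf10 was at 5.46 ± 0.575 and Gpc6 at 3.96 ± 0.178 RPM per kilobase. In WT quiescent microglia the leading members were Gas6 (80.8 ± 11.5), Sparc (75.6 ± 2.47) and Mertk (26.3 ± 0.438), whereas Thbs1 led by far in WT LPS microglia at 313 ± 82.5 RPM per kilobase.

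Across conditions the highest mean exceeded the lowest by 5.34-fold for Sparc, 9.15-fold for Mertk and 10.9-fold for Gas6. For Gpc4 the span was 25.4-fold, for Sparcl1 54.5-fold and for Thbs1 63.0-fold. It reached 72.3-fold for Gpc6, 79.2-fold for Chrdl1, 95.5-fold for Thbs2 and 96.1-fold for Megf10. In microglia, 4 members were close to the limit of detection, with 4 to 35 reads a library for Thbs2, 3 to 17 for Gpc6, 1 to 16 for Chrdl1 and 1 to 21 for Megf10, so nothing is said of their changes there beyond these values and the test of Thbs2.

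The order of conditions below is by mean RPM, and whether neighbours overlap can differ under the DESeq2 scaling of the tests, as it does for Gas6 between quiescent genotypes, for Gpc6 in SOD1G93A activation and for Sparcl1 in WT activation. Sparc ran from WT activated astrocytes (659.6) through SOD1G93A activated (517), WT quiescent (397) and SOD1G93A quiescent astrocytes (306) to WT quiescent microglia (286), then SOD1G93A (130.4) and WT LPS microglia (123). Neighbours overlapped except that WT activated astrocytes lay apart from SOD1G93A activated ones, and quiescent microglia from LPS microglia. Sparcl1 was highest in SOD1G93A quiescent astrocytes (677), then SOD1G93A activated (616), WT quiescent (586) and WT activated astrocytes (449), with only the last of these apart from its neighbours, and it lay between 12.4 and 15.5 RPM in the 3 microglia conditions, which overlapped.

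Thbs1 stood at 1904 RPM in WT and 1726 RPM in SOD1G93A LPS microglia, which overlapped. It was far lower in WT activated (76.8) and SOD1G93A activated astrocytes (66.2), which also overlapped. SOD1G93A quiescent astrocytes (39.2), WT quiescent astrocytes (34.9) and WT quiescent microglia (30.2) overlapped at the bottom. Thbs2 was highest in WT activated astrocytes (119.5), apart from SOD1G93A activated astrocytes (79.7), which were in turn apart from the rest. SOD1G93A quiescent astrocytes (3.85), WT quiescent astrocytes (2.85) and WT quiescent microglia (2.74) overlapped, above SOD1G93A (1.27) and WT LPS microglia (1.25).

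Gpc4 ran from the overlapping SOD1G93A activated (67.3 RPM) and WT activated astrocytes (65.2) to the overlapping SOD1G93A quiescent (43.5) and WT quiescent astrocytes (41.3), with 2.65 to 3.77 RPM in microglia. For Gpc6 the quiescent astrocytes lay above the activated ones, with overlapping WT quiescent (43.7) and SOD1G93A quiescent astrocytes (39.8). SOD1G93A activated (31.2) and WT activated astrocytes (25.4) followed, each of these apart from its neighbours, and microglia held 0.605 to 1.13 RPM. Chrdl1 was highest in SOD1G93A activated astrocytes (67.2), apart from the overlapping SOD1G93A quiescent (55.2), WT quiescent (53.8) and WT activated astrocytes (45.8), and lay at 0.849 to 1.23 RPM in microglia.

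Megf10 stood at 93.1 RPM in SOD1G93A and 85.7 RPM in WT quiescent astrocytes, which overlapped, above the overlapping SOD1G93A (42.8) and WT activated astrocytes (42.1), and at 0.969 to 1.87 RPM in microglia. Mertk was a microglial transcript first, at 114 RPM in quiescent cells, 52.6 in SOD1G93A LPS and 44.0 in WT LPS microglia, with the LPS groups overlapping. The 4 astrocyte conditions overlapped in sequence between 19.4 RPM (SOD1G93A activated) and 12.4 RPM (WT quiescent). Gas6 led in WT quiescent microglia (206), apart from the overlapping SOD1G93A (126) and WT activated astrocytes (116). It then stood at 48.8 in SOD1G93A quiescent and 42.2 in WT quiescent astrocytes, which lay apart, and at 22.1 in SOD1G93A and 19.0 in WT LPS microglia, which overlapped.

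**Figure D1:**
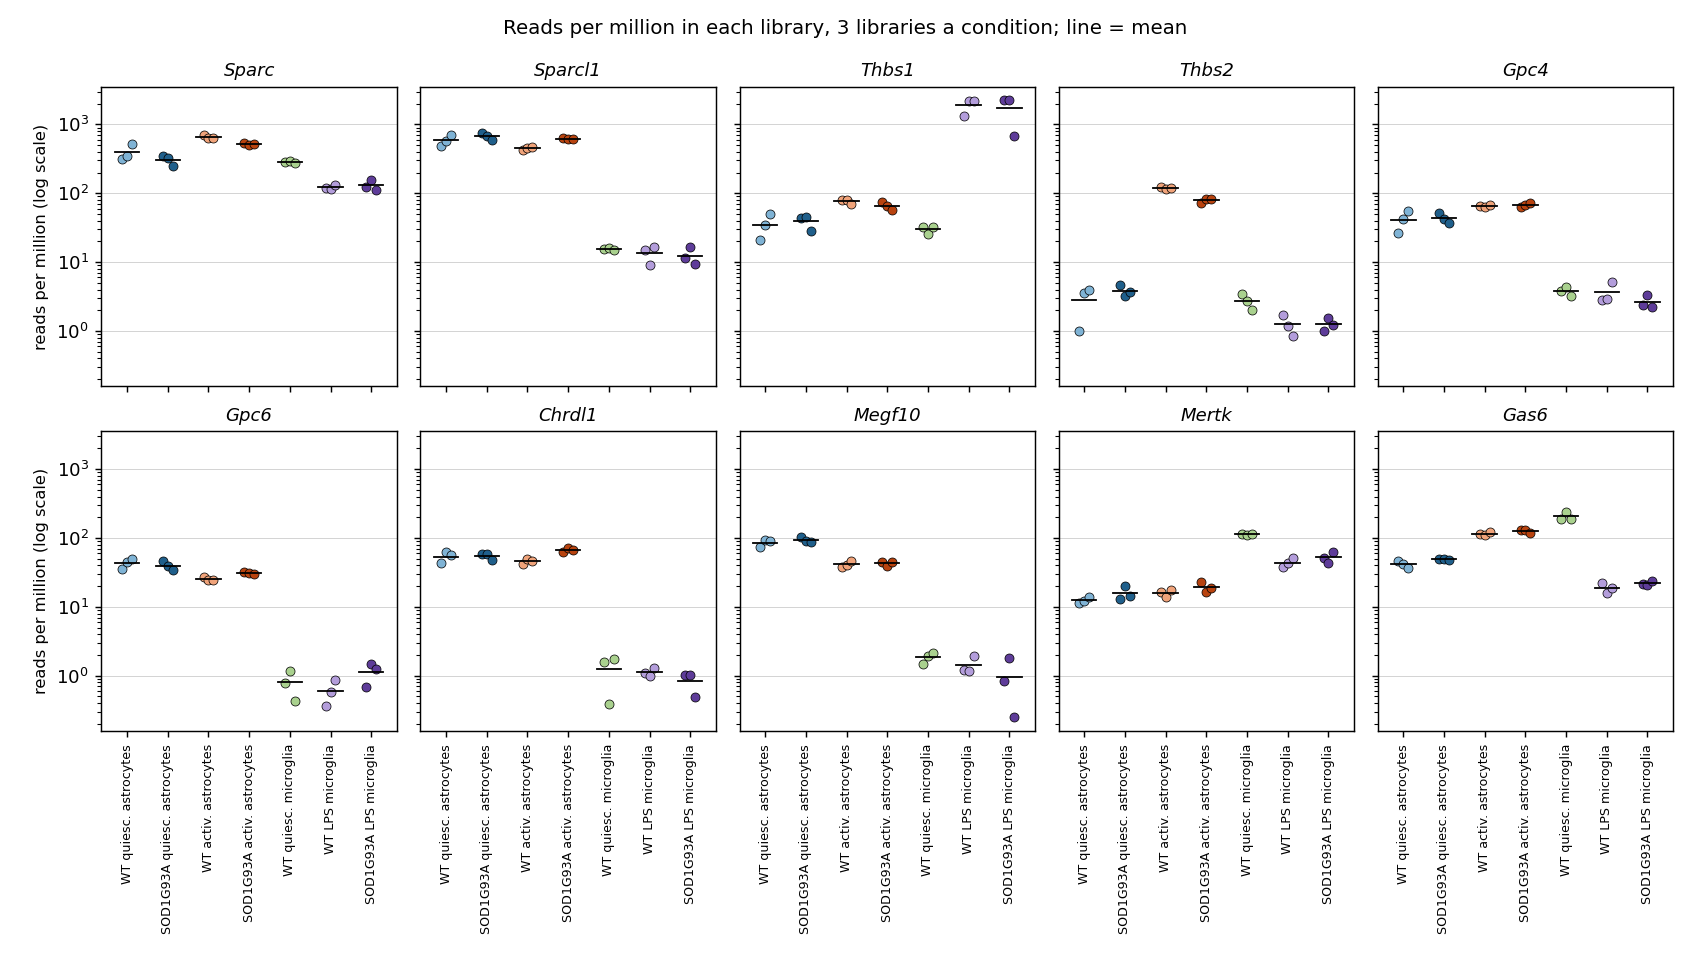
Level of each of the 10 genes in every library, in RPM on a log axis, by condition, with points for the 3 libraries and a line at their mean. Thbs1 stands at a mean of 1904 in WT LPS microglia against 30.2 in WT quiescent microglia, and Thbs2 at 119.5 in WT activated against 2.85 in WT quiescent astrocytes.

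Tests used limma on log2(normalized count + 1), with the DESeq2-normalized counts that the authors deposited for each comparison, leaving out genes whose mean over the samples compared was below 10. Benjamini-Hochberg adjustment ran over all genes tested. A gene was called, and is said to have risen or fallen, at an adjusted p under 0.001 with more than a 2-fold difference. The added 1 makes fold changes of low genes too small. A 3 against 3 exact permutation test has 20 arrangements and cannot go below p = 0.1, so it is not used.

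What activation by IL-1α, TNFα and C1q did to these genes was asked first in WT astrocytes. Thbs2 and Gas6 rose, and the other 8 members were not called, 2 of 10 against 11.5% of 12336 genes. At an adjusted p under 0.05 at any fold, 7 members passed, 5 higher and 2 lower, against 38.3% of all genes. The median log2 fold change was 0.57 over the members and 0.01 over all genes tested.

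Thbs2 (chr17:14665500-14694235, minus strand of GRCm38) encodes a secreted thrombospondin. WT quiescent libraries held 4.66, 17.1 and 19.7 normalized counts and WT activated libraries 599, 566 and 586. Every activated library lay far above every quiescent one, and the ratio of the means was 42.2. The log2 fold change was 5.51 ± 0.39 (SE; limma, adjusted p = 9.7e-07). Without WT quiescent replicate 1, which held 2 Thbs2 reads, it was 4.92.

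Gas6 (chr8:13465374-13494490, minus strand), the TAM ligand, held 221, 202 and 184 normalized counts in WT quiescent and 559, 535 and 603 in WT activated astrocytes. The groups were well separated, with a ratio of means of 2.80. The log2 fold change was 1.48 ± 0.10 (SE; limma, adjusted p = 8.3e-07).

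Megf10 (chr18:57133090-57297467, plus strand), the engulfment receptor, went the other way. Its counts were 352, 445 and 440.2 in WT quiescent against 186, 199 and 233 in WT activated astrocytes. The groups did not overlap, and the log2 fold change of -0.996 ± 0.12 (SE; limma, adjusted p = 8e-05) was just inside the 2-fold limit. It was called without WT quiescent replicate 1 (-1.11) or WT activated replicate 3 (-1.09), and by edgeR (-1.01) and DESeq2 (-1.02) on recovered reads.

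Thbs1 (chr2:118111876-118127133, plus strand), the other thrombospondin of the set, held 97.8, 163 and 245 counts in WT quiescent and 388, 388 and 348 in WT activated astrocytes. All 3 activated libraries were higher, but the quiescent ones were widely spread, and the log2 fold change of 1.24 ± 0.25 (SE) had an adjusted p of 0.0024 by limma. Sparc (chr11:55394500-55423183, minus strand), the antagonist of Sparcl1, had 1493, 1687 and 2570.2 counts in quiescent and 3436, 3097 and 3129 in activated cells (log2 fold change 0.79 ± 0.17 SE; limma, adjusted p = 0.0032). Gpc4 (chrX:52053021-52165252, minus strand), a glypican, had 126, 199 and 273 against 318, 306 and 331 counts (0.74 ± 0.22 SE; limma, adjusted p = 0.020). In each of these genes WT quiescent replicate 3, which stood apart, was nearest to the activated libraries. Without it 5 members were called, beside 12.5% of 12348 genes, Thbs1 (1.56), Sparc (1.02) and Gpc4 (1.00) joining Thbs2 and Gas6.

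Gpc6 (chr14:116925315-117976544, plus strand), the second glypican, was lower after activation, with 168, 216 and 247 counts in WT quiescent against 130.2, 119 and 123 in WT activated astrocytes. The groups did not overlap, and the log2 fold change was -0.74 ± 0.15 (SE; limma, adjusted p = 0.0019), short of 2-fold. Sparcl1 (chr5:104079111-104113733, minus strand) at -0.34 (limma, adjusted p = 0.082), Chrdl1 (chrX:143285674-143394262, minus strand) at -0.19 (0.32) and Mertk (chr2:128698956-128802894, plus strand) at 0.39 (0.092) missed both limits, and their groups overlapped. Groups did not overlap for 7 of the 10 members, nor for 50.9% of all genes.

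The same question in SOD1G93A astrocytes needed libraries from different deposited tables, so recovered whole reads were rescaled together. Thbs2 and Gas6 rose and Megf10 fell, 3 of 10 members against 13.1% of 12203 genes. At an adjusted p under 0.05, 7 members passed, 6 higher and 1 lower, against 43.1% of all genes. The median was 0.55 over the members and -0.01 over all genes tested.

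Thbs2 counts were 20.6, 13.3 and 15.1 in SOD1G93A quiescent and 326, 376 and 369 in SOD1G93A activated astrocytes. The activated libraries were all far higher, with a ratio of means of 21.8 and a log2 fold change of 4.39 ± 0.17 (SE; limma, adjusted p = 1.4e-11). Gas6 counts of 219.8, 205 and 197 stood against 575, 584 and 532 after activation (1.44 ± 0.10 SE; limma, adjusted p = 6.1e-09). Megf10 counts of 452, 377 and 358 stood against 198, 177 and 200.4. No library of one group reached the other, and Megf10 fell by 1.03 ± 0.11 on the log2 scale (SE; limma, adjusted p = 1.4e-06). The Megf10 call was lost without SOD1G93A quiescent replicate 1 (-0.93), a library that stood apart, or without SOD1G93A activated replicate 2 (-0.98), because the fold came under 2.

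Sparc (0.85; limma, adjusted p = 2.1e-05), Thbs1 (0.85; 0.00048) and Gpc4 (0.72; 0.00039) were higher after activation of SOD1G93A astrocytes by less than 2-fold, and Chrdl1 by less again (0.37; 0.017). In all 4 every activated library lay above every quiescent one. The share of all genes whose groups did not overlap was 50.9% in WT activation and is not given for SOD1G93A activation. Gpc6 at -0.26 (limma, adjusted p = 0.14), Mertk at 0.37 (0.11) and Sparcl1 at -0.05 (0.77) missed both limits with overlapping groups. The sign of the Sparcl1 value turned without SOD1G93A quiescent replicate 1 (0.07). Among 5 sex-linked genes, 2 were lower after activation at an adjusted p under 0.05 (limma), beside 43.1% of all genes in either direction, and 0 were called. Gpc4 and Chrdl1 are X-linked, and the part of sex in their values was not tested.

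Transcripts that mark other cells moved along with Thbs2, Gas6, Thbs1, Sparc and Megf10 on activation. The 9 pericyte and fibroblast markers summed to 10.9, 12.9 and 19.3 RPM in WT quiescent and 58.0, 53.8 and 47.7 RPM in WT activated libraries, and to 9.66, 10.1 and 9.72 against 34.9, 39.7 and 37.9 RPM in SOD1G93A astrocytes. Lum was the most abundant of them after activation (21.5 RPM in WT), and Lum and Dcn were at 3 reads or fewer in every WT quiescent library. In WT cells 2 of the 4 tested markers of that list rose and in SOD1G93A cells 3 of 3, against 11.5% and 13.1% of all genes called. Of these markers, Lum and Dcn passed the count limit only through activated libraries and so had to differ. Vtn and Kcnj8 were at 3 reads or fewer in the activated libraries.

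Of the 7 endothelial markers only Flt1 passed the count filter, and it rose in both genotypes (4.02 in WT and 4.41 in SOD1G93A astrocytes on the log2 scale). The list summed to 8.93, 9.90 and 13.4 RPM in WT quiescent and 137, 148 and 153 RPM in WT activated astrocytes. It went from 6.61, 7.45 and 6.99 to 118, 117 and 111 RPM in SOD1G93A astrocytes. Cldn5, Cdh5, Tek and Ly6c1 were at 3 reads or fewer in every activated astrocyte library, so the sum was almost wholly Flt1.

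The 10 oligodendrocyte lineage markers went from 3149, 3062 and 2972 to 1127, 1162 and 1102 RPM in WT and from 3564, 3308 and 3344 to 1107, 1073 and 1138 RPM in SOD1G93A astrocytes, with Olig1 the most abundant throughout. Of 9 tested, 4 fell in WT and 3 in SOD1G93A cells, against 11.5% and 13.1% of all genes called. In SOD1G93A cells Gpr17 passed the count limit only through quiescent libraries. The 10 microglia markers summed to 156, 218 and 273 RPM in WT quiescent and 191, 306 and 165 RPM in WT activated astrocytes, with none of 9 called by limma. In SOD1G93A astrocytes they summed to 346, 362 and 241 against 229, 163 and 169.5 RPM. There 8 of 9 were lower at an adjusted p under 0.05 by limma but short of a call, against 43.1% of all genes in either direction. The 6 neuronal markers summed to 20.8, 17.3 and 19.9 against 38.0, 47.4 and 38.96 RPM in WT cells, led by Tubb3, and 11.97, 11.998 and 10.6 against 33.9, 26.2 and 29.5 RPM in SOD1G93A cells, and Tubb3 rose in both. The part of any of these cells in the change of the members was not tested.

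Astrocyte markers moved as well. The 11 genes summed to 5457, 5912 and 6833 RPM in WT quiescent and 4955, 4951 and 4978 RPM in WT activated astrocytes. There Fgfr3 and Hepacam fell and 9 were not called, although 8 of the 11 were lower at an adjusted p under 0.05 at any fold (limma). The list median was -0.80, and 38.3% of all genes passed that limit in either direction. In SOD1G93A astrocytes the sums were 5801, 5313 and 4701 against 4866, 4839.8 and 4936 RPM, and Gfap rose and Fgfr3 fell. At an adjusted p under 0.05, 6 of the 11 were lower (list median -0.45), beside 43.1% of all genes in either direction. Slc1a3 was the most abundant in every astrocyte condition.

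Whether the transgene alters resting astrocytes was asked next. No member was called between SOD1G93A and WT quiescent astrocytes by limma, edgeR or DESeq2, 0 of 10 against 0% of 12271 genes, and 0 members but 1068 genes had an unadjusted p under 0.05 by limma. Over all genes, limma called 0, edgeR 0 and DESeq2 7. Log2 fold changes of the members ran from -0.38 (Sparc) to 0.56 (Thbs2), the lowest adjusted p was 0.61, and groups overlapped for all 10 members, whereas they did not for 14.6% of genes. The 95% intervals reached from -0.81 to 1.64, and that of Thbs2 includes a 2-fold difference.

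Sparc counts were 1574, 1758 and 2664 in WT and 1730.5, 1584 and 1221 in SOD1G93A quiescent astrocytes, and the value was -0.15 without WT replicate 3, and -0.57 with a depth class as a term (limma, adjusted p = 0.0028), in each case short of 2-fold. Mertk had 56.5, 60.1 and 70.8 against 66.1, 97.1 and 71.1 counts (0.30; limma, adjusted p = 0.67). Thbs2, at 4.91, 17.8 and 20.5 against 23.8, 15.5 and 17.8 counts, gave -0.02 without WT replicate 1. With both libraries that stood apart left out, an alternative chosen after seeing the data, Sparc was at -0.26 and 2 genes were called, none of them a member. Of 5 sex-linked genes, 2 were lower in SOD1G93A libraries at an adjusted p under 0.05, Kdm5d at -1.24 (limma, adjusted p = 0.024) and Ddx3y at -1.05 (0.046), while Xist was at 1.99 (0.24).

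Between activated SOD1G93A and activated WT astrocytes no member reached 2-fold. By limma 0 of 10 were called against 0.645% of 12098 genes, by edgeR 0 and by DESeq2 0. At an adjusted p under 0.05 at any fold 4 members passed, 2 higher and 2 lower, against 7.27% of genes, and 6 members and 2464 genes had an unadjusted p under 0.05. The median was 0.12 over the members and -0.00 over all genes tested. For 5 members the groups did not overlap, nor for 24.1% of all genes.

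Sparcl1, the synapse-promoting protein, had 1763, 1872 and 2024 counts in WT and 2745, 2615 and 2637 in SOD1G93A activated astrocytes. All SOD1G93A libraries were higher, by 0.50 ± 0.06 on the log2 scale (SE; limma, adjusted p = 1.3e-05). Chrdl1, the receptor-switching protein, had 176, 204 and 197 against 274, 309 and 289 counts, again with every SOD1G93A library above, by 0.59 ± 0.09 (SE; limma, adjusted p = 0.00018).

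The synaptogenic thrombospondin Thbs2 was lower, with 516, 489 and 503 counts in WT against 315, 362 and 356 in SOD1G93A activated astrocytes (-0.54 ± 0.08 SE; limma, adjusted p = 5.8e-05). Sparc was lower too, with 2961, 2673 and 2682 against 2284, 2198 and 2227 counts (-0.31 ± 0.06 SE; limma, adjusted p = 0.002), though by limma without trend the adjusted p was 0.11. No library of one genotype reached the other in these 4 genes, so after activation Sparcl1 was higher and its antagonist Sparc lower in the SOD1G93A libraries, each by less than 2-fold. The other 6 members lay between -0.18 (Thbs1) and 0.33 (Gpc6, adjusted p = 0.082 by limma). Between them, Mertk was at 0.29 (0.32), Gas6 at 0.16 (0.21), Gpc4 at 0.09 (0.63) and Megf10 at 0.07 (0.78), the last turning to -0.00115 without WT activated replicate 1.

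Markers of other cells were lower along with Thbs2 and Sparc. The 9 pericyte and fibroblast markers summed to 58.0, 53.8 and 47.7 RPM in WT and 34.9, 39.7 and 37.9 RPM in SOD1G93A activated astrocytes, led by Lum, and the 7 endothelial markers, almost wholly Flt1, to 137, 148 and 153 against 118, 117 and 111 RPM, with no overlap in either list. Dcn (-1.07; limma, adjusted p = 0.013) and Flt1 (-0.30; 0.0094) were lower at an adjusted p under 0.05 without being called. Pdgfrb did not follow (0.15; limma, adjusted p = 0.74), and the median of the 4 pericyte and fibroblast markers tested was -0.14. The 6 neuronal markers summed to 38.0, 47.4 and 38.96 against 33.9, 26.2 and 29.5 RPM, again without overlap, with 1 of 4 tested lower at an adjusted p under 0.05 (limma). By the same limit, which 7.27% of all genes passed, 3 astrocyte markers of 10 were higher and 2 lower. Of 9 oligodendrocyte lineage markers, 1 was higher and 2 lower. The part of these cells was not tested. Sex-linked genes differed beside these values. Xist rose by 1.19 on the log2 scale, while Kdm5d fell by 1.45, Uty by 1.35, Ddx3y by 1.07 and Eif2s3y by 1.06, so the 5 sex genes tested were all called, though by limma without trend, with adjusted p from 0.0045 (Uty) to 0.033 (Xist), none of them was. Chrdl1 and Gpc4 are X-linked. The part of sex in the difference of Chrdl1 and the other members was not tested, and depth cannot be told apart from genotype here. Of the other lists, Il33, a cytokine by which astrocytes promote engulfment of synapses by microglia, fell by 1.35 on the log2 scale (76.4, 61.6 and 54.7 against 27.7, 31.9 and 16.3 counts; limma, adjusted p = 0.00079). Of the 18 glial synapse regulators in its list, 5 were higher and 4 lower at an adjusted p under 0.05 at any fold, against 7.27% of all genes, and Il33 alone was called, though not by limma without trend (adjusted p = 0.059). None of the 24 engulfment genes tested was called by limma. Megf11, a relative of Megf10, was lower at an adjusted p of 0.022 by limma (-0.75).

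Whether the response to activation differed between genotypes was tested as an interaction over all 12 astrocyte libraries, on rescaled recovered reads, with an adjusted p under 0.05 as the limit. No member passed by limma, edgeR or DESeq2, 0 of 10 against 0.277% of 12269 genes, and 3 members and 1018 genes had an unadjusted p under 0.05 by limma. These were Chrdl1 (0.57; limma, adjusted p = 0.40), Thbs2 (-1.10; adjusted p = 0.53) and Gpc6 (0.49; adjusted p = 0.54), and Sparcl1 was at 0.30 (adjusted p = 0.71). The other members lay between -0.38 (Thbs1) and 0.07 (Sparc). The larger Thbs2 value in WT than in SOD1G93A astrocytes (5.51 and 4.39) was therefore not shown to differ. Chrdl1 passed without WT quiescent replicate 1 (0.73; limma, adjusted p = 0.047). With a depth class as a term, 4 members passed beside 1528 of all genes, among them Chrdl1 (0.91), Gpc6 (0.98) and Sparcl1 (0.86).

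**Figure D2:**
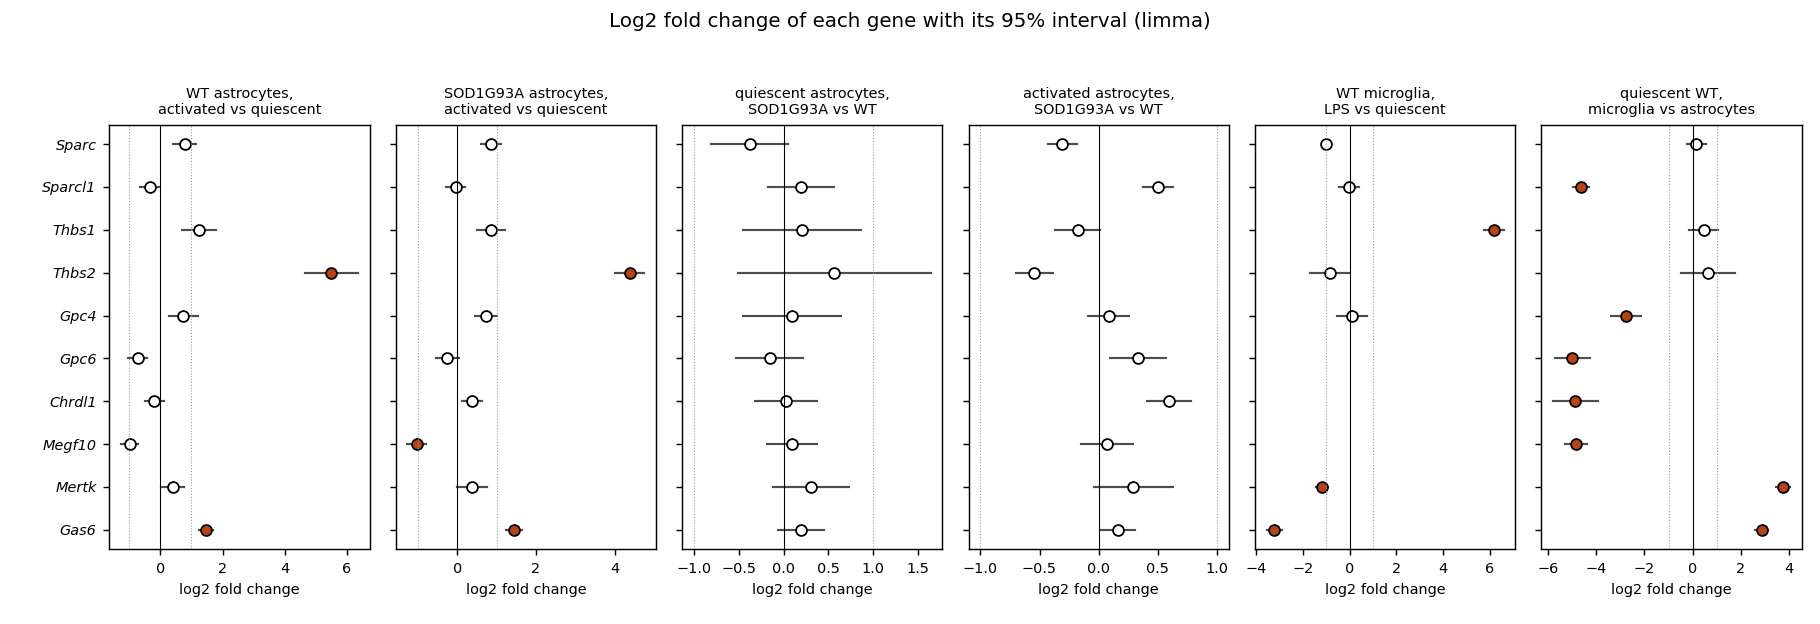
Log2 fold change of each gene with its 95% interval (limma) in 6 comparisons, with filled points for called genes and dotted lines at 2-fold in either direction. Thbs1 is at 6.15 in LPS-treated against quiescent WT microglia and Thbs2 at 5.51 in activated against quiescent WT astrocytes, while the points for genotype lie within the dotted lines.

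Microglia are professional phagocytes, and LPS activates them through Toll-like receptor signalling. With LPS, Thbs1 rose and Gas6 and Mertk fell in WT microglia. That is 3 of 7 members tested, against 20.8% of 10866 genes, and 4 passed at an adjusted p under 0.05 at any fold (1 higher, 3 lower), against 56.9% of genes. Gpc6, Chrdl1 and Megf10 did not reach the count limit.

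Thbs1 counts were 166, 139 and 170.3 in quiescent and 7910.1, 13946 and 13145 in LPS microglia. All LPS libraries were far above, with a ratio of means of 73.6 and a log2 fold change of 6.15 ± 0.19 (SE; limma, adjusted p = 1.4e-09). Without LPS replicate 1, the library that stood apart and had the lowest Thbs1 of the group, it was 6.41.

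The ligand Gas6 had 958, 1285 and 1009 counts in quiescent and 132, 98.3 and 116 in LPS microglia, and its receptor Mertk 594, 599.6 and 602 against 224, 275 and 307. Neither pair of groups came near to overlap. Gas6 fell by 3.22 ± 0.14 on the log2 scale (SE; limma, adjusted p = 1.8e-08) and Mertk by 1.16 ± 0.12 (SE; limma, adjusted p = 1.2e-05). Without LPS replicate 1 the Mertk value was -1.04. Sparc had 1485, 1579.9 and 1450.1 against 715, 734 and 811 counts, lower in every LPS library, and at -0.998 ± 0.08 (SE; limma, adjusted p = 2.9e-06) it lay just inside the 2-fold limit. It was called by edgeR (-1.01) and DESeq2 on recovered reads, and without quiescent replicate 1 or 3 or LPS replicate 3, but not without LPS replicate 1 (-0.96), the library that stood apart.

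Thbs2 was low in microglia in both states, at 17.8, 14.7 and 10.6 counts in quiescent and 10.3, 7.38 and 5.21 in LPS cells (-0.85 ± 0.37 SE; limma, adjusted p = 0.075). It passed the count limit only through quiescent libraries, with a mean of 7.62 counts in LPS cells, so its direction was given by the filter and is a description only. Gpc4 (0.11; limma, adjusted p = 0.76) and Sparcl1 (-0.02; 0.94) had overlapping groups, and both signs turned when a library was left out: Sparcl1 was at 0.216 without LPS replicate 2 and at 0.0215 without quiescent replicate 2, and Gpc4 at -0.15 without LPS replicate 3 and at -0.00123 without quiescent replicate 3.

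Other transcripts differed with LPS as well. Of the 10 microglia markers 8 fell, against 20.8% of all genes called. Their sum went from 10352, 10878 and 10202 to 2898, 2785 and 2872 RPM, with Csf1r the most abundant before and Itgam after. Y-linked transcripts were close to absent from the LPS libraries, with Ddx3y at 23.0, 22.0 and 24.5 RPM in quiescent against 0.739, 0.392 and 1.07 RPM in LPS cells, and Xist at 96.7, 65.9 and 86.7 against 116, 164 and 171 RPM. The 4 Y-linked genes passed the count limit only through quiescent libraries. The 10 oligodendrocyte lineage markers went from 1346, 1372 and 1386 to 139.9, 138 and 139 RPM, led by Cspg4, and 2 of 5 tested fell. Of the endothelial markers Kdr (1.01 on the log2 scale) rose and Flt1 (-3.47) fell, and Pecam1 (4.17) passed the count limit only through LPS libraries, and the list summed to 67.0, 75.3 and 75.1 against 45.6, 55.9 and 50.7 RPM. Of the pericyte and fibroblast markers Dcn (4.98) was called, also passing only through LPS libraries, with list sums of 12.5, 6.27 and 5.76 against 21.7, 22.2 and 18.2 RPM. Of 9 astrocyte markers tested Gja1 (2.72) and Slc1a2 (2.28) rose and Glul fell (-1.83), with list sums of 896, 896 and 848 against 347, 324 and 411 RPM. The part of these cells was not tested. LPS and the sex make-up of the cultures therefore cannot be told apart for Thbs1, Gas6, Mertk and Sparc in this comparison.

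Whether the transgene alters activated microglia was asked between SOD1G93A and WT LPS microglia. Of 6 members tested, 0 were called by limma, against 0% of 10679 genes, 0 by edgeR and 0 by DESeq2, and 0 members and 930 genes had an unadjusted p under 0.05 by limma. Over all genes edgeR called 0 and DESeq2 3. Member values lay between -0.40 (Gpc4) and 0.26 (Mertk), with the lowest adjusted p at 0.61, and the groups of all 6 overlapped.

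Thbs1 had 7855, 13834 and 13147 counts in WT and 13911, 13787 and 4085 in SOD1G93A LPS microglia, the low value of each group being that of the library that stood apart. The log2 fold change was -0.29 ± 0.45 (SE; limma, adjusted p = 0.84), 0.30 without SOD1G93A replicate 3, and 0.04 with both of these libraries left out, an alternative chosen after seeing the data. Gas6 had 131, 97.5 and 116 against 133, 128 and 143 counts (0.24; limma, adjusted p = 0.61) and Mertk 222, 273 and 307 against 323, 267 and 371 (0.26; 0.61).

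Setting quiescent WT microglia against quiescent WT astrocytes, again on rescaled recovered reads, compared the cell types. Of 10 members 7 were called, 5 lower and 2 higher in microglia, against 47.3% of 12064 genes. Gpc6 and Chrdl1, with means of 4.67 and 7.15 counts in microglia, passed the count limit only through astrocytes and so had to differ, and the count supports nothing for them. These cells also differed in purification, brain region, age and medium, which cannot be told apart from cell type. Of 5 sex genes, 3 were lower in microglia.

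The synapse regulators Sparcl1 (-4.62; limma, adjusted p = 8.8e-10) and Gpc4 (-2.76; 4.5e-06) and the receptor Megf10 (-4.83; 4.4e-09) were lower in microglia on the log2 scale. Gpc6 (-4.98) and Chrdl1 (-4.86) are given as a description only. Microglia held few reads of Gpc6 (8, 3 and 3), Chrdl1 (16, 1 and 12) and Megf10 (15, 5 and 15), so the size of these folds is uncertain, and 4 members were called when every library had to hold 10 counts. For instance Megf10 had 8.49, 11.6 and 12.6 counts in microglia and 282, 359.9 and 363 in astrocytes. Gas6 and Mertk, a ligand and its receptor, were higher in microglia. Mertk had 663, 662 and 669 counts in microglia against 42.9, 46.7 and 56.3 in astrocytes (3.75 ± 0.13 SE; limma, adjusted p = 1e-09), and Gas6 1068, 1419.6 and 1119.7 against 177, 164 and 151 (2.86 ± 0.12 SE; limma, adjusted p = 5.6e-09).

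Sparc was held by both cell types, at 1655, 1745 and 1609 counts in microglia and 1195, 1365 and 2118 in astrocytes (0.14 ± 0.18 SE; limma, adjusted p = 0.48). Its sign turned under quantile normalization (-0.46; limma, adjusted p = 0.027) and without WT quiescent astrocyte replicate 1 (-0.03). Without astrocyte replicate 3, which stood apart, it was 0.39 (limma, adjusted p = 0.0014), short of 2-fold. Thbs1 (0.45; limma, adjusted p = 0.16) and Thbs2 (0.64; 0.26) had overlapping groups, and their values turned on single astrocyte libraries and on the scaling. Without astrocyte replicate 1 Thbs1 was at 0.10 and Thbs2 at 0.05, without astrocyte replicate 3 Thbs1 was at 0.78 (limma, adjusted p = 0.0059) and Thbs2 at 0.99, and under quantile normalization Thbs2 was at 1.85 (limma, adjusted p = 0.0039). None of these was called.

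Relatives of the members by family, include further thrombospondins, glypicans, SMOCs and SPOCKs, 15 genes in all. In WT astrocytes 8 were tested on activation, of which 1 rose and 1 fell, against 11.5% of all genes called. The SPARC relative Smoc1 fell by 2.83 on the log2 scale, from 1810.0, 1884 and 1579 to 217, 262 and 261 counts (limma, adjusted p = 1.1e-08), and another, Fstl1, rose by 2.65, from 424, 453 and 520.2 to 3163, 2667 and 2947 counts (limma, adjusted p = 1.3e-08). In SOD1G93A astrocytes, with 9 tested, Smoc1 fell by 3.16 and Fstl1 rose by 2.45, against 13.1% of all genes called. The list median in WT cells was -0.15, against 0.01 over all genes. Thbs3 (0.37; limma, adjusted p = 0.13), Gpc1 (-0.01; 0.91) and Spock2 (-0.41; 0.014) were not called, and Thbs4 and Gpc5 did not reach the count limit in WT cells.

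The engulfment pathway list held 28 further genes, 24 of them tested in WT astrocytes. On activation none rose and 3 fell, and 5 were higher and 5 lower at an adjusted p under 0.05 at any fold, with a list median of -0.10. Of all genes 11.5% were called and 38.3% had an adjusted p under 0.05 in this comparison. Mfge8, a bridging protein that links phosphatidylserine to integrins, fell by 2.16 on the log2 scale, from 3194, 3388 and 3253 to 696, 735 and 770.1 counts (limma, adjusted p = 1.1e-08). The TAM receptor Tyro3 fell by 1.28, from 345, 409 and 399.6 to 162, 153 and 155 counts (limma, adjusted p = 2.7e-06), and the phosphatidylserine receptor Adgrb1 by 1.01 (limma, adjusted p = 4.8e-06).

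Other TAM genes went the opposite way by less than 2-fold. The receptor Axl, at 596, 715 and 793 against 1438, 1373 and 1364 counts, was at 1.00 (0.997; limma, adjusted p = 2.2e-05), and the ligand Pros1 at 0.92 (limma, adjusted p = 1.1e-05). Lrp1 (0.95; limma, adjusted p = 1.8e-05) and the lipid transporter Abca1 (0.85; 5.4e-05) were also higher, and Itgb5 was lower (-0.43; 0.0085). Itgav (0.09; 0.64), Megf11 (-0.38; 0.11) and the adaptor Gulp1 (-0.25; 0.28) missed both limits. In SOD1G93A astrocytes the 3 that fell were Mfge8 (-1.69), Tyro3 (-1.39) and Adgrb1 (-1.15) of 24 tested, against 13.1% of all genes called, with Axl at 0.83. Per kilobase, the TAM receptor with the most transcript in WT activated astrocytes was Axl (56.6 ± 2.01 RPM), above Tyro3 (5.18 ± 0.167) and Mertk (3.72 ± 0.439).

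In WT microglia with LPS, 2 genes of the engulfment list rose and 9 fell of 23 tested, against 20.8% of all genes called, with a list median of -0.59 against 0.00 over all genes. The integrins Itgb3 and Itgb5 fell by 3.66 and 3.11 on the log2 scale, and the TAM ligand Pros1 by 3.08, from 810.4, 858 and 775 to 101, 79.9 and 108 counts (limma, adjusted p = 1e-08). Lrp1 fell by 2.40, Mfge8 by 1.79 and Itgav by 1.43. The scavenger receptor Cd36 rose by 2.46, from 344, 417 and 389 to 1783, 2266 and 2304 counts (limma, adjusted p = 3.4e-08), and the scramblase Xkr8 by 1.64. Axl, at -0.59 (limma, adjusted p = 0.0012), was not called, so of the TAM genes with called values, Gas6, Pros1 and Mertk all fell, while Tyro3 was at -1.16 (limma, adjusted p = 0.020). Tyro3 passed the count limit only through quiescent libraries, so its direction was given by the filter and is a description only.

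Engulfment genes went both ways between quiescent microglia and astrocytes. Of 25 tested, 12 were called higher and 7 lower in microglia, against 47.3% of all genes called. Stab1 was at 6.23, Itgb3 at 4.92 and Axl at 3.44 on the log2 scale, whereas Adgrb1 (-5.75), Tyro3 (-4.15), Gulp1 (-3.94), Megf11 (-3.91) and Mfge8 (-2.07) were lower in microglia. Of the TAM receptors only Tyro3 was lower in microglia, with 276, 331 and 329 counts in astrocytes and 13.6, 23.2 and 14.3 in microglia, although per kilobase WT quiescent astrocytes held more Axl (28.96 ± 3.40 RPM) than Tyro3 (12.9 ± 1.00). Of the family relatives Smoc1 was lower in microglia (-6.33). Spock2 (-5.12; 12, 3 and 7 reads in microglia), Thbs3 (-3.93; 4, 0 and 3 reads), Gulp1 (9, 1 and 7 reads) and Megf11 (7, 1 and 5 reads) passed the count limit only through astrocytes, as Itgb3 did only through microglia, so their directions were given by the filter and are a description only.

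A list of 18 other glial regulators of synapses had 5 genes that rose and 5 that fell on activation of WT astrocytes, against 11.5% of all genes called, with a median of 0.34. Those that rose were led by Il33 (2.60) and the matrix proteins Tnc (2.20) and Vcan (1.94). Tnc went from 3410.4, 3885 and 6715 to 20899, 18746 and 21887 counts, the highest quiescent value being that of WT replicate 3. Among those that fell were the perineuronal matrix proteins Bcan (-1.47) and Ncan (-1.21), the growth factor Ptn (-1.48), the adhesion molecule Nlgn3 (-1.34) and the pentraxin Nptx2 (-1.11). In SOD1G93A astrocytes 3 rose and 3 fell, against 13.1% of all genes called, with Tnc at 2.46, Vcan at 1.84 and Nlgn3 at -1.45. In WT microglia with LPS, where 20.8% of all genes were called, 3 of 14 rose, namely Tgfb2 (3.64), Vcan (2.78) and Nlgn2 (1.07), and none fell. Between quiescent microglia and astrocytes 16 were tested, against 47.3% of all genes called. Only Tgfb1 was called higher in microglia (5.71), and 13 were called lower, with a list median of -3.87. Nlgn1 and Nptx2 passed the count limit only through astrocytes, so the count supports nothing for them.

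Of 9 synaptic partners, the receptors on the neuronal side that these proteins bind, 7 were tested in WT astrocytes and 1 fell on activation, Ptprd (-1.02; limma, adjusted p = 0.00059), with a median of -0.15 and 11.5% of all genes called. It also fell in SOD1G93A astrocytes (-1.14). In microglia with LPS, Nrxn2 rose (1.37) and Ptprs fell (-1.78) of 5 tested, beside 20.8% of all genes called. Between genotypes none of these 4 lists had a called gene in quiescent astrocytes (10, 25, 18 and 8 tested), in LPS microglia (3, 22, 12 and 5 tested) or in the interaction, by limma.

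Across the 12 astrocyte libraries, which share their conditions, the members did not all run together. Pearson r of log2 counts is given as a description only. Thbs2 followed Gas6 (0.958), Thbs1 (0.907) and Gpc4 (0.884), and ran against Megf10 (-0.914) and Gpc6 (-0.727). Thbs1 and Gpc4 were at 0.937 and Sparc and Thbs1 at 0.892. Sparcl1 went with Gpc6 (0.742) and Chrdl1 (0.725) and was at -0.291 with Sparc, -0.065 with Thbs1 and 0.096 with Gpc4. Chrdl1 was at 0.448 with Gpc4, 0.287 with Thbs1 and -0.026 with Megf10. Mertk was at 0.664 with its ligand Gas6.

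Of 12269 genes, those most like Thbs2 over these 12 libraries were Esm1 (0.995), Icam1 (0.994) and Rprm (0.994). For Gas6 they were Rrad (0.994), Tmem176a (0.994) and Zfand5 (0.993), for Thbs1 Nos2 (0.987), Abi1 (0.981) and Prkcd (0.973), and for Sparc Pcdhgc5 (0.985), Pxn (0.982) and Actn1 (0.982). Gpc4 was most like Nrp1 (0.974), Tuba8 (0.967) and Elk3 (0.966). These members are all higher after activation. Megf10 was most like Mmp15 (0.993), Zeb1 (0.992) and Sash1 (0.990), and Gpc6 most like Slc4a4 (0.964) and the astrocyte markers Gja1 (0.964) and Aldh1l1 (0.963). Sparcl1 was most like Rmnd5a (0.952), Efr3a (0.946) and Pcdh17 (0.931), and Mertk most like Coq3 (0.899), Clock (0.892) and Serhl (0.877), lower values throughout.

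Promoter sequences from RefSeq (GRCm38.p6) were kept for 5 of the 10 members, Sparc, Thbs2, Gpc4, Mertk and Gas6. Not every member was open to this step, so the absence of a member, such as Megf10, does not show that no promoter matched it. The 250 bases before the start of Thbs2 and Gas6 are shown because both genes rose on activation in both genotypes. The Thbs2 window is chr17:14694263-14694512 and the Gas6 window chr8:13494536-13494785, both on the minus strand and 5′ to 3′, with motifs in capitals. Both strands were searched for TATAAA, the NF-κB consensus, TGANTCA and the CArG box.
Thbs2: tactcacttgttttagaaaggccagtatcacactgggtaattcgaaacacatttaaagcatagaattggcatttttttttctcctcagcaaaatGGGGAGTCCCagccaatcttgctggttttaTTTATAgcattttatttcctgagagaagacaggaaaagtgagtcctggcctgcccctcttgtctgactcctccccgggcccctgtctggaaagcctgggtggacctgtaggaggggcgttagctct
Gas6: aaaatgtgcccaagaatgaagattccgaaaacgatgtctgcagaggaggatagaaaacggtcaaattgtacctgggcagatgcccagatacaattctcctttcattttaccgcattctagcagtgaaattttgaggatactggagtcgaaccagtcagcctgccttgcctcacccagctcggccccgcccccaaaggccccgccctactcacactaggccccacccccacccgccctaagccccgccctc

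In Thbs2 the NF-κB consensus lay at -156 to -147 from the start and TATAAA at -126 to -121. Both matched on the opposite strand, so the capitals show the reverse complement of each motif, and the letters do not overlap. The Gas6 window held none of the 4 motifs. Of 32851 promoters of the same length, 3.90% held the NF-κB consensus, 12.4% TATAAA, 6.75% TGANTCA and 1.47% the CArG box. A match describes the letters only, and binding was not measured.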

How the data were processed

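RNA from immunopanned astrocytes and magnetically sorted microglia was sequenced by the authors (stranded mRNA libraries, HiSeq 4000, paired-end), aligned to mm10 with STAR 2.7.3a, counted with rsem and normalized with DESeq2 1.38.0 in R 3.6.1. The authors deposited 6 tables of signal, that is, DESeq2-normalized counts per library and comparison. Their fold changes, p-values and means in the same tables were not used. Whole reads were recovered for 100.0% of 878796 values (tolerance 0.001), and of 366165 reads held by several tables none (0) differed. Each comparison reported that a single table holds was tested on that table, and the table of WT quiescent against SOD1G93A LPS microglia was not tested and served only in the recovery of reads. Tests used limma 3.58.1 (R 4.3.3, eBayes with trend) on log2(normalized count + 1). Comparisons that no single table holds used recovered reads rescaled by median-of-ratios. RPM used each library's own total, between 2016139 and 11570122 reads, and exon lengths came from GENCODE M21 (23334 of 24411 symbols matched). Count models (edgeR 4.0.16, DESeq2 1.42.0) ran on recovered reads. Alternatives changed the pseudocount, filter, scaling, tool, threshold, replicate block, depth class and libraries. Genes to name were drawn mainly from the members, 16 fixed relatives, the 3 called genes of largest fold in each list, and the 3 genes most like each member. Not all of them were named in every comparison. Members and lists were chosen with earlier results of these data known.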

Additional observations from a re-analysis of the deposited data

Results flagged for a closer look

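Of 7 members tested in both comparisons, 3 moved apart in opposite directions, Thbs2 among them only through a filter described below. For these 3, all activated WT astrocyte libraries were above all quiescent ones, while all WT microglia libraries with LPS were below all quiescent ones. The difference between the cell types was not tested. Of 10262 genes tested in both comparisons, 10.5% lay apart in opposite directions. The stimuli also differ, and cell type and stimulus cannot be told apart. Thbs2 had a log2 fold change of 5.51 in astrocytes and -0.85 in microglia, where it was low in both states and its adjusted p was 0.075 by limma. In microglia it passed the count limit only through quiescent libraries, so its direction there is a description only and the count supports nothing for it. Gas6 was at 1.48 in astrocytes and -3.22 in microglia. Sparc was at 0.79 in astrocytes and -0.998 in microglia, called in neither by limma with all libraries. It was called with LPS by edgeR and DESeq2 on recovered reads, and in astrocytes by limma without WT quiescent replicate 3.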

How the results depend on the processing

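The number of members called changed little under most alternatives, though single calls, such as those of Megf10, Thbs1 and Sparc, came or went. With an adjusted p under 0.05 at any fold as threshold, 7 members and 4722 genes passed in WT astrocyte activation, 7 and 5262 in SOD1G93A activation, 4 and 879 between activated genotypes, 6185 genes with LPS and 9448 between cell types, 7 genes between quiescent genotypes and 1 between LPS genotypes. The stricter threshold left 0 genes in the interaction. Requiring 10 counts in every library left 1 member in WT activation (Thbs2 was filtered out) and 4 between cell types (fewer members were tested). DESeq2 called 7 genes between quiescent genotypes, 69 in the interaction and 3 between LPS genotypes. Without trend, limma called 1 gene between activated genotypes and 15 in the interaction, and with no filter 19 in the interaction. The depth class term gave 13 genes between quiescent genotypes, 4 members and 1528 genes in the interaction, and 1 gene between LPS genotypes, and could not be fitted between activated genotypes. Leaving out both libraries that stood apart, chosen after seeing the data, gave 2 genes between quiescent and 3 between LPS genotypes. Where no construction shows it, the cause was not tested.

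Values that reversed were small and not called. Sparcl1 was at 0.00272 with the depth class term in SOD1G93A activation, and with LPS at 0.0022 by quantile normalization, 0.0326 by edgeR and 0.0267 by DESeq2. Gpc4 with LPS was at -0.0230 with the depth class term, Thbs1 between LPS genotypes at 0.0383 with both libraries left out, and Sparc between cell types at -0.46 by quantile normalization. When each library was dropped in turn, 2 to 5 members were called in WT activation, and 0 to 1 members and 13 to 68 genes in the interaction. Dropping 1 library moved Thbs2 between quiescent genotypes from -0.0241 to 0.91, Megf10 between activated genotypes from -0.0011 to 0.16, Sparcl1 in SOD1G93A activation from -0.16 to 0.0657 and with LPS from -0.18 to 0.22, Gpc4 with LPS from -0.15 to 0.28, Thbs1 between LPS genotypes from -0.59 to 0.30, and Sparc between cell types from -0.0272 to 0.39.

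Replicate numbers did not pair samples: same-numbered quiescent astrocytes of the 2 genotypes correlated at -0.400, 0.059 and -0.436, while WT replicate 3 and SOD1G93A replicate 1, the libraries that stood apart, correlated at 0.522 and WT replicate 1 and SOD1G93A replicate 3 at 0.351. With the replicate block 0, 1423, 100, 1584, 15, 2201, 0 and 5768 genes were called in the comparisons between quiescent genotypes, WT activation, activated genotypes, SOD1G93A activation, interaction, LPS, LPS genotypes and cell types. The block added Thbs1 in WT activation (adjusted p = 0.00077 by limma).

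Levels under median-of-ratios scaling were 0.780 to 1.35 times those given, over 70 values of which 18 moved by less than 1 SD. The order of conditions was kept for Gpc6, Megf10, Mertk and Gas6 and changed for the other 6 members among quiescent conditions or low microglia. Depth limits Thbs2 in quiescent cells and Gpc6, Chrdl1 and Megf10 in microglia.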
